A study of Mus musculus with 12 samples.

Results

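The respiratory chain genes were taken as the protein-coding rows whose symbol names a subunit, or an Ndufaf assembly factor, of the chain: mt-Nd, mt-Co, mt-Cytb and mt-Atp, Nduf, Sdha to Sdhd, Uqcr, Cox4 to Cox8, Atp5, Cyc1 and Cycs. This rule found 109 of 54532 rows. Of these, 13 lie in the mitochondrial genome and 96 in the nuclear genome. They were measured by bulk RNA sequencing in liver of Apoe knockout mice, with 6 samples from mice injected with Gfp-AAV (control) and 6 from mice injected with Rspo2-AAV. AAV is adeno-associated virus, used as a gene delivery vector, and Rspo2 encodes R-spondin 2, a secreted protein that strengthens Wnt signalling. Both groups therefore lack Apoe and carry a vector. Fat storage in the liver and AMPK signalling are the study's question, going by its title. The sources used here do not give the vector's promoter, serotype, dose or route, the interval after injection, or the age and sex of the mice. Whether every sample came from its own animal is not stated either, and the p-values cover only the spread among these samples.

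The respiratory chain sits in the inner mitochondrial membrane. Complex I takes electrons from NADH and complex II from succinate, complex III passes them through cytochrome c to complex IV, which reduces oxygen, and ATP synthase uses the resulting proton gradient to make ATP. Complexes I, III, IV and ATP synthase are built from subunits of both genomes, while complex II and cytochrome c are wholly nuclear. Hepatocytes are rich in mitochondria, and they oxidise fatty acids there.

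The 12 libraries held 14295644 to 22195576 reads. FPKM is a level per length, reads scaled by gene length and by a size set for each library, which differed from its read total. Rspo2 was at 0 FPKM in all controls and at 49.9 to 573 FPKM in the Rspo2-AAV libraries. The 6 hepatocyte markers summed to 22506 to 46213 FPKM in controls and 18576 to 41319 in Rspo2-AAV libraries, so the labelled tissue was present in each. The 8 pancreatic acinar markers summed to at most 0.885 FPKM in controls and reached 41400 in Rspo2-AAV 4, where they took 4.89% of reads, and 3470 in Rspo2-AAV 5. They summed to 399 FPKM in Rspo2-AAV 6 and 35.2 in Rspo2-AAV 7, also above all controls. In Rspo2-AAV 1 and 2 the sums were 0.759 and 0.982. Xist RNA, made from an inactivated X chromosome, was detected at 5.57 FPKM or more in 3 libraries (control 3 and the Rspo2-AAV libraries numbered 1 and 2). Without Rspo2-AAV 4 and 5, or without the libraries with Xist, no respiratory chain gene passed the test, as in all 12 libraries. Of all genes tested, 1.76% passed without Rspo2-AAV 4 and 5 and 12.8% without the libraries with Xist. Leaving out Rspo2-AAV 4 and 5 kept the acinar markers of Rspo2-AAV 6 and 7 in the fit. The 5 macrophage and Kupffer markers summed to 152 to 295 FPKM in controls and 68.9 to 141 in Rspo2-AAV libraries. The 4 stellate and fibroblast markers summed to 33.7 to 47.2 and 13.6 to 27.1. In bulk liver, fewer cells of a type and less RNA per cell cannot be told apart, and the part of any of the cell types in this paragraph in the values below was not tested. Muscle and brown fat also have dense mitochondria: the 8 muscle markers summed to 4.05 FPKM in control 1 and to 0.286 to 0.984 in the other 11 libraries, and Ucp1 reached at most 0.123 FPKM. The 3 erythroid markers summed to 93.0 to 327 FPKM in controls and 207 to 1200 in Rspo2-AAV libraries, highest in Rspo2-AAV 2. They did not move alike. The median in controls and then Rspo2-AAV libraries was 36.5 and 256 FPKM for Hbb-bs and 27.5 and 226 for Hba-a1. For Alas2 it was 57.2 and 21.7, the opposite direction.

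No respiratory chain gene passed the test between Rspo2-AAV and control. Of the 102 that averaged 0.5 FPKM or more, 0 were higher and 0 lower at an adjusted p under 0.05 (limma). Of all 13447 genes tested, 5.20% passed, with 343 higher (2.55%) and 356 lower (2.65%). At an unadjusted p under 0.05 there were 5 genes, 4 with higher and 1 with lower values in Rspo2-AAV, which is 4.90% against 21.5% of all genes tested. By limma-voom on recovered reads 0 passed, against 4.97% of all genes. There 5 members had an unadjusted p under 0.05, and the share of all genes at that threshold is not given here. The groups overlapped for each of the 102, while they did not overlap for 3.24% of all genes. The median log2 difference was 0.06 over the 102 and 0.003 over all genes tested.

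The intervals bound the sizes that the data allow on the scale of FPKM + 0.5. That scale understates changes of low genes, such as Cox7a1 with 3 to 14 reads per library. The 95% interval stayed within 2-fold in either direction for 95 of the 102 genes (94 with 0.1 added in place of 0.5) and within 1.5-fold for 59. Of all 13447 genes tested, 11304 stayed within 2-fold and 7419 within 1.5-fold. The median SE was 0.213 over the 102 and 0.160 over all genes tested. The 7 respiratory chain genes whose interval passed 2-fold were mt-Atp6, mt-Co3, mt-Nd4l, mt-Nd3, mt-Atp8, Ndufa12 and Ndufa4l2. The other 7 members fell under the level filter and were not tested. They were Cox4i2, Cox6a2, Cox6b2, Cox7b2, Cox8b, Cox8c and a second row of Atp5o.

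The 13 mitochondrially encoded genes had the highest class median, and 7 of them stood above all nuclear members. All 13 of 13 had a positive log2 difference, with a median of 0.32, but 0 passed the test. They took 4.18% to 5.76% of reads in controls (median 4.92%) and 3.43% to 10.3% in Rspo2-AAV libraries (median 5.38%). The highest share was Rspo2-AAV 2 and the lowest Rspo2-AAV 1, so the control range lay inside that of the treated group. Without Rspo2-AAV 2 the count with a positive difference was 7 of 13 and the median was 0.10.

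mt-Co1 encodes the catalytic core of complex IV. It lies at MT:5328-6872 on the plus strand (GRCm38). Its lowest, median and highest FPKM were 9905, 12313 and 15201 in controls and 7396, 13479 and 27688 in Rspo2-AAV libraries. The groups overlapped, and both extremes of the 12 libraries were in Rspo2-AAV libraries (numbers 1 and 2). The log2 difference was 0.16 ± 0.28 (SE, n = 6 and 6; adjusted p = 0.790).

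mt-Cytb, at MT:14145-15288, encodes cytochrome b, the mitochondrially made subunit of complex III. It had 5618, 7188 and 8428 FPKM in controls and 4779, 8625 and 19135 in Rspo2-AAV libraries, with a log2 difference of 0.32 (95% interval -0.28 to 0.92, adjusted p = 0.553). Again Rspo2-AAV 2 was highest and Rspo2-AAV 1 lowest.

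The complex I subunits mt-Nd1, mt-Nd2, mt-Nd4 and mt-Nd5 belong to the proton-pumping membrane arm. mt-Nd1 had 3908, 4821 and 6279 FPKM in controls and 3160, 6072 and 13369 in Rspo2-AAV libraries. The log2 differences were 0.32 for mt-Nd1, 0.04 for mt-Nd2, 0.12 for mt-Nd4 and 0.20 for mt-Nd5, with adjusted p from 0.564 to 0.948. mt-Nd6, the member read from the other strand of the mitochondrial genome (MT:13552-14070, minus strand), had 2214, 3054 and 3709 FPKM in controls and 1968, 2749 and 8140 in Rspo2-AAV libraries (log2 difference 0.10, adjusted p = 0.881). Each of these 5 had its highest value in Rspo2-AAV 2, and the groups overlapped.

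The remaining 6 were listed at far lower FPKM. Over the 12 libraries the median was 201 FPKM for mt-Co2, 112 for mt-Atp6, 109 for mt-Co3, 107 for mt-Nd4l, 74.8 for mt-Nd3 and 5.20 for mt-Atp8. In the cell, most of these genes are cut from the same long transcripts as the others. Of their 100-base windows, 99.5% for mt-Co2, 99.5% for mt-Atp6, 99.9% for mt-Co3, 98.5% for mt-Nd4l and 97.6% for mt-Nd3 also stand in a transcript of a nuclear gene in GENCODE M21. For mt-Nd1, mt-Nd5, mt-Nd6 and mt-Cytb, at medians of 2915 to 8018 FPKM, this share was 0%. mt-Nd4 (60.8%), mt-Co1 (30.8%) and mt-Nd2 (3.19%) lay between. mt-Atp8 had a share of 0% and the lowest level. It is the shortest of the 13, overlaps mt-Atp6 on the same strand, and had 4 to 37 reads per library. The sources used here do not say how reads with several placements were treated, and its part in these levels was not tested.

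Of the nuclear genes that hold such windows, 7 are annotated as unprocessed pseudogenes on the minus strand of chromosome 1, and 3 others (Gm13339, Gm13340 and Gm13341) lie on chromosome 2. The stretches below show how little separates a mitochondrial gene from its copy, and capitals mark the bases that differ. Compared without gaps, mt-Co1 and Gm29216 (chr1:24615706-24616197) were identical at 486 of 492 bases, mt-Nd3 and Gm28438 at 344 of 345, and mt-Atp6 and Gm10925 (chr1:24613974-24614651) at 678 of 678. All 6 differences of mt-Co1 fall in the 60 bases shown, MT:6381-6440 on the plus strand against chr1:24616138-24616197 on the minus strand (GRCm38).
mt-Co1: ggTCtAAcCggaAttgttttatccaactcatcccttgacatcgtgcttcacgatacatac
Gm29216: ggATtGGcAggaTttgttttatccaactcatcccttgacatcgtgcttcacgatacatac
The start of mt-Nd3, MT:9459-9518 on the plus strand, holds its only difference from chr1:24613060-24613119 on the minus strand.
mt-Nd3: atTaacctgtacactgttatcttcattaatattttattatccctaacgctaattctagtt
Gm28438: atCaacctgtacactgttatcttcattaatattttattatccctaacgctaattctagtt
For mt-Atp6, MT:8236-8295 on the plus strand and chr1:24614283-24614342 on the minus strand read alike.
mt-Atp6: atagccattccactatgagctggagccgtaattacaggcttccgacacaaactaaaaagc
Gm10925: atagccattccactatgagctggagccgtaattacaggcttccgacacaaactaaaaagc

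mt-Atp6, the subunit that forms the proton path of ATP synthase, had the largest log2 difference of all 102. It had 80.5, 96.1 and 122 FPKM in controls and 103, 187 and 809 in Rspo2-AAV libraries. Rspo2-AAV 2 was highest by a wide margin, and the lowest Rspo2-AAV libraries lay inside the control range. The log2 difference was 1.12 ± 0.41 (SE; 95% interval 0.25 to 2.00; adjusted p = 0.128). Its copy Gm10925 was listed at 59.5 to 102 FPKM in controls and 60.3 to 308 in Rspo2-AAV libraries, also highest in Rspo2-AAV 2. With 678 of 678 bases identical, reads within them cannot be told apart by sequence. The listed level and difference of mt-Atp6 therefore depend on how such reads were counted, which was not tested.

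mt-Atp8, the small partner of mt-Atp6, had 1.48, 3.61 and 8.18 FPKM in controls and 5.05, 6.85 and 11.9 in Rspo2-AAV libraries (log2 difference 0.98, adjusted p = 0.0997). 1 control lay within the Rspo2-AAV range. Leaving out control 6, the library with that value, gave a log2 difference of 1.204 and an adjusted p of 0.0460, with 2.66% of all genes passing. Control 6 opposed the difference, and mt-Atp8 passed in 1 of 26 alternatives, with adjusted p up to 0.615. mt-Nd3 had 31.0, 64.7 and 85.8 FPKM in controls and 61.0, 87.7 and 153 in Rspo2-AAV libraries (log2 difference 0.62, adjusted p = 0.197), with the groups overlapping. mt-Nd4l did not follow the others: it was at 105 FPKM in Rspo2-AAV 2 and highest in Rspo2-AAV 4, at 320.0 FPKM. Its log2 difference was 0.52, and those of mt-Co2 and mt-Co3 were 0.32 and 0.31, with adjusted p from 0.557 to 0.740.

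**Figure D1:**
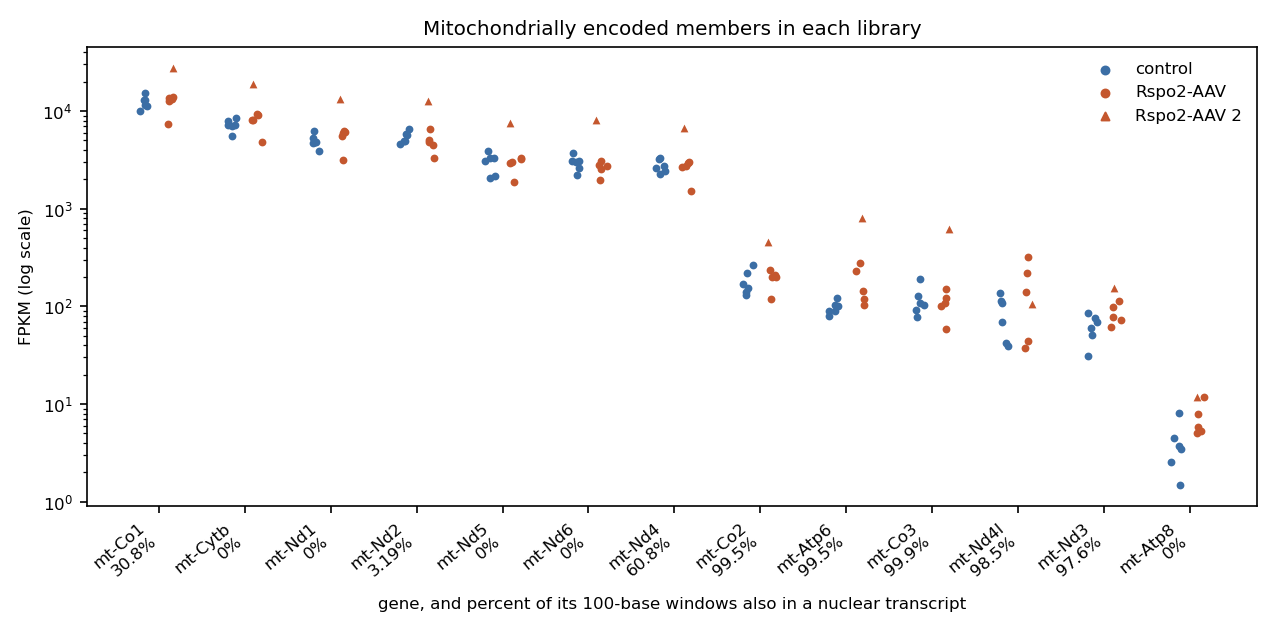
FPKM (log scale) of the 13 mitochondrially encoded genes in each of 12 libraries, with the percent of each gene's 100-base windows that also stand in a nuclear transcript under its name; triangles mark Rspo2-AAV 2. Rspo2-AAV 2 is highest for 11 of 13, and the 5 genes with over 90% shared windows have medians of 74.8 to 201 FPKM.

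Among the nuclear subunits the widest departures were shared by most genes and fell in 2 libraries, control 1 and Rspo2-AAV 2. Relative to each gene's median over the 12 libraries, the median of the 89 tested nuclear genes was 1.60-fold in control 1 and 1.76-fold in Rspo2-AAV 2, and 0.90- to 1.04-fold in the other 10. The same ratio over all 13447 genes was 1.01 and 1.00 in these 2 libraries. Rspo2-AAV 2 held the highest of 12 values for 57 of the 89 genes and control 1 for 27. Rspo2-AAV 1 held the lowest value for 34. The nuclear members took 1.53% of reads in control 1 and 1.46% in Rspo2-AAV 2, against 1.02% to 1.17% in the other 10.

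Because 1 such library stood in each group, it widened the spread on both sides. The median coefficient of variation over the nuclear members was 26.9% in controls and 31.2% in Rspo2-AAV libraries, and 9.20% and 8.27% without control 1 and Rspo2-AAV 2. The counting error at the lowest read count of a gene had a median of 2.98%, below these spreads. Without these 2 libraries 0 of 102 passed, against 8.73% of all genes. At an unadjusted p under 0.05 there were 10 members, and the share of all genes at that threshold is not given here. In that comparison 88 of 102 intervals stayed within 1.5-fold, and the count over all genes is not given here. There 8 of 13 mitochondrially encoded genes had a positive log2 difference (median 0.08). The median over the nuclear members was 0.04 with all libraries, 0.16 without control 1 (75 of 89 positive), -0.09 without Rspo2-AAV 2 (18 of 89 positive) and 0.03 without both.

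The 2 genomes did not move alike in these libraries. The 13 mitochondrially encoded genes stood at a median of 2.39-fold in Rspo2-AAV 2 but 0.93-fold in control 1, and at 0.59-fold in Rspo2-AAV 1, where 10 of 13 had their lowest value. By complex, the median ratio in control 1 and Rspo2-AAV 2 was 1.66 and 1.89 for complex I, 1.62 and 1.72 for complex III, 1.66 and 2.07 for complex IV, and 1.54 and 1.75 for ATP synthase. It was 1.40 and 0.97 for complex II, and 1.37 and 1.08 for the Ndufaf assembly factors. These are descriptions with no test.

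**Figure D2:**
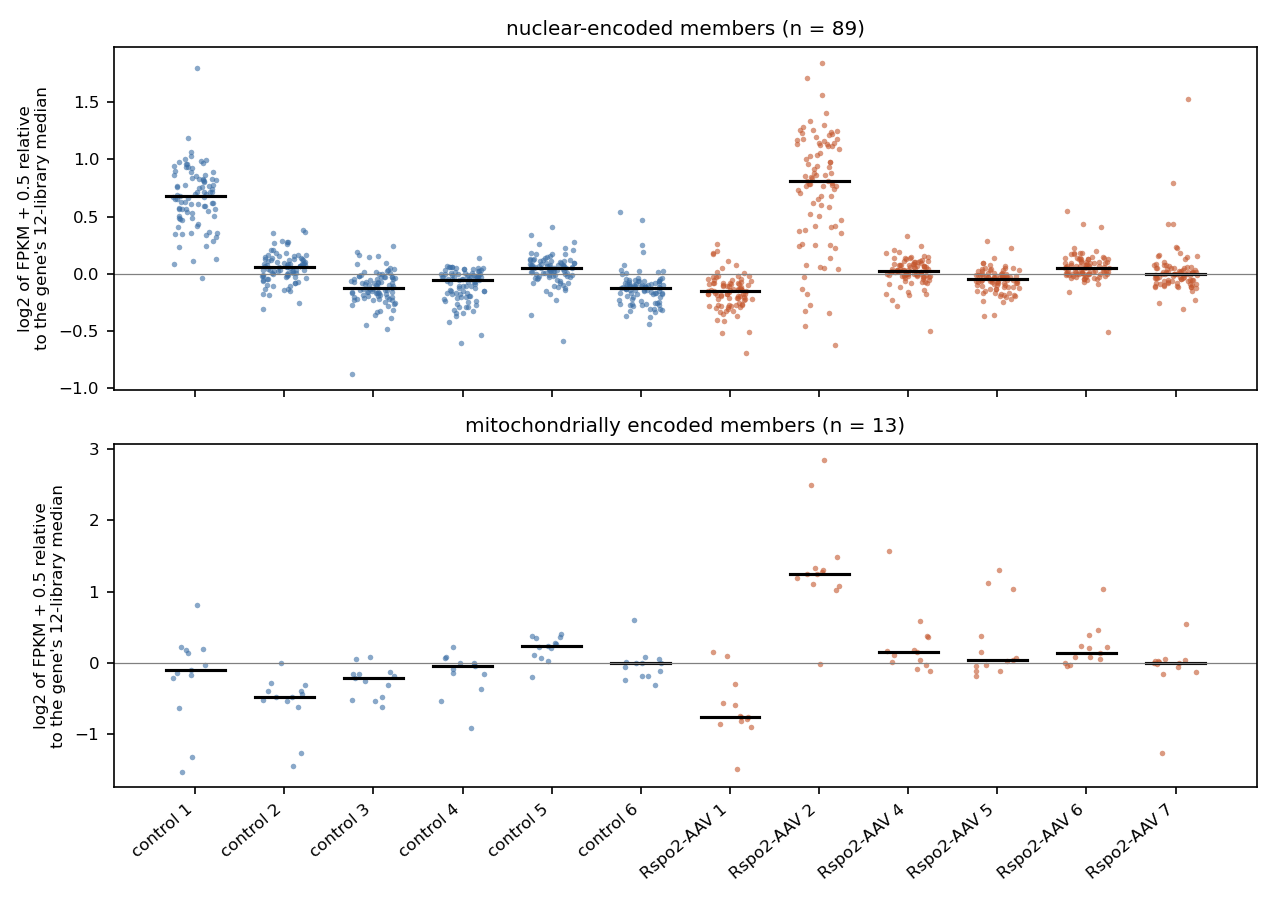
Each point is 1 gene in 1 library, as the log2 of its FPKM + 0.5 relative to the gene's median over 12 libraries, with nuclear members above and mitochondrially encoded members below; black bars are medians. Nuclear members stand at 0.68 in control 1 and 0.81 in Rspo2-AAV 2, and the mitochondrially encoded members stand apart at 1.26 in Rspo2-AAV 2 and -0.76 in Rspo2-AAV 1.

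Complex I has 36 nuclear members, all tested, with mean levels of 1.42 to 135 FPKM. Of these 0 passed, 26 had positive and 10 negative log2 differences, and the median was 0.07. Ndufa2 and Ndufb11, accessory subunits, had the highest means. Ndufa2 had 92.7, 101 and 228 FPKM in controls and 110.0, 115 and 297 in Rspo2-AAV libraries (log2 difference 0.23, adjusted p = 0.686). The highest values were control 1 and Rspo2-AAV 2, and the other 10 libraries lay between 92.7 and 131. Ndufb11 had 96.9, 115 and 219 FPKM in controls and 106, 122 and 237 in Rspo2-AAV libraries, with a log2 difference of 0.10 (adjusted p = 0.857).

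The largest positive difference of the class was that of Ndufa6, an accessory subunit of the matrix arm, with 46.8, 54.3 and 103 FPKM in controls and 60.1, 66.6 and 134 in Rspo2-AAV libraries. Its log2 difference was 0.30 (95% interval -0.19 to 0.79; adjusted p = 0.479), and 0.29 (adjusted p = 0.0743) without control 1 and Rspo2-AAV 2. Ndufs1, the largest iron-sulfur subunit of the arm that oxidises NADH, had the largest negative difference. It had 12.2, 12.8 and 14.03 FPKM in controls and 9.06, 11.7 and 12.8 in Rspo2-AAV libraries, a log2 difference of -0.21 ± 0.10 (SE; adjusted p = 0.236). Its lowest value was Rspo2-AAV 2, and the groups overlapped. Ndufv1, which holds the NADH-binding site, differed by 0.02 (adjusted p = 0.943).

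Ndufa12, chosen after its values were seen, was unlike the rest of the class. Control 1 had 24.9 FPKM, Rspo2-AAV 2 had 25.7 and Rspo2-AAV 7 had 20.5, while the other 9 libraries had 5.41 to 10.1. Its interval, -0.79 to 1.09 on the log2 scale, was the widest of the nuclear subunits.

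The 8 Ndufaf genes encode factors that help assemble complex I and are no part of the finished enzyme. Of these 0 passed, 4 had positive and 4 negative differences, and 2 had an unadjusted p under 0.05 in opposite directions. Ndufaf6 had 6.61, 9.87 and 13.3 FPKM in controls and 10.7, 14.1 and 17.1 in Rspo2-AAV libraries. Controls 1 and 2 lay inside the Rspo2-AAV range. The log2 difference was 0.47 ± 0.17 (SE; adjusted p = 0.142). Ndufaf1 had 14.5, 17.6 and 25.6 FPKM in controls and 9.35, 15.03 and 16.05 in Rspo2-AAV libraries, a log2 difference of -0.38 ± 0.16 (adjusted p = 0.194). Controls 3 and 4 lay inside the Rspo2-AAV range. Ndufaf8 had the highest median in the Rspo2-AAV group, 18.3 FPKM against 17.8 in controls, and differed by -0.04 (adjusted p = 0.928).

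Complex II is the 1 class in which all members, 4 of 4, had negative log2 differences (median -0.12), and 0 passed. Sdha, the flavoprotein that oxidises succinate, had 97.3, 119 and 134 FPKM in controls and 72.9, 112 and 116 in Rspo2-AAV libraries (log2 difference -0.22, 95% interval -0.52 to 0.08, adjusted p = 0.400). The lowest value was Rspo2-AAV 2, the library in which most other nuclear subunits were highest. Sdhb, the iron-sulfur subunit, did stand high there, with 72.6, 80.9 and 139 FPKM in controls and 73.1, 81.8 and 135 in Rspo2-AAV libraries (log2 difference -0.003, adjusted p = 0.995). The membrane anchors Sdhc and Sdhd differed by -0.15 and -0.08, with adjusted p of 0.534 and 0.773. Sdhd had 126, 148 and 194 FPKM in controls and 117, 145 and 155 in Rspo2-AAV libraries.

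Complex III has 9 nuclear members, of which 0 passed, with 4 positive and 5 negative differences and a median of -0.004. Uqcrfs1, the Rieske iron-sulfur protein, had 153, 171 and 244 FPKM in controls and 144, 160.1 and 220.4 in Rspo2-AAV libraries (log2 difference -0.11, adjusted p = 0.689). The small subunit Uqcrq had 123, 149 and 297 FPKM in controls and 143, 159 and 460 in Rspo2-AAV libraries (log2 difference 0.22, adjusted p = 0.721). Both had their highest value of each group in control 1 and Rspo2-AAV 2. The core subunit Uqcrc2 had 72.6, 75.3 and 92.9 FPKM in controls and 60.7, 68.8 and 74.9 in Rspo2-AAV libraries, a log2 difference of -0.18 ± 0.09 (SE; adjusted p = 0.300). Of the Rspo2-AAV libraries, number 2 alone reached the control range. Cycs, the mobile cytochrome c, had 18.2, 23.8 and 34.9 FPKM in controls and 20.3, 23.2 and 35.1 in Rspo2-AAV libraries, a log2 difference of 0.01 (95% interval -0.35 to 0.37).

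Complex IV has 20 nuclear members, of which 14 were tested and 0 passed, with 9 positive and 5 negative differences and a median of 0.04. Cox6a1 had the highest mean of all nuclear members. It had 368, 440.4 and 786 FPKM in controls and 430.2, 461 and 966 in Rspo2-AAV libraries (log2 difference 0.14, adjusted p = 0.777). Cox8a had 298, 348 and 560.0 FPKM in controls and 282, 331 and 597 in Rspo2-AAV libraries (log2 difference -0.04, adjusted p = 0.928). Control 1 and Rspo2-AAV 2 were the high libraries of both genes.

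Several complex IV subunits exist as isoforms from separate genes, and the widely expressed form was the abundant one in each set. Cox4i1 had 186, 205 and 340.3 FPKM in controls and 192, 214 and 491 in Rspo2-AAV libraries. Its partner Cox4i2, known from lung, reached at most 0.302 FPKM. Cox6a1 stood against at most 0.804 FPKM of Cox6a2, the heart and muscle form. Cox6b1, at 153 to 403 FPKM, stood against at most 1.25 FPKM of Cox6b2, known from testis. Cox7a2 (78.2 to 205 FPKM) and Cox7a2l (72.1 to 113) exceeded the muscle form Cox7a1 (0.395 to 1.41). Cox8a stood against at most 1.05 FPKM of Cox8b, while Cox8c was listed at 0 in all libraries, as were Cox7b2 and the second Atp5o row. The log2 differences of the tested forms were 0.13 for Cox4i1, 0.06 for Cox6b1, 0.12 for Cox7a2, -0.01 for Cox7a2l and -0.24 for Cox7a1, with adjusted p from 0.568 to 0.974.

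Ndufa4, now counted as a complex IV subunit, had 126, 135 and 236 FPKM in controls and 127, 135 and 248 in Rspo2-AAV libraries (log2 difference 0.02, adjusted p = 0.975). Ndufa4l2, its paralog known for induction by low oxygen, was at 1.09 to 2.00 FPKM in controls. In Rspo2-AAV libraries it was at 0.941 to 6.18, with Rspo2-AAV 2 highest (log2 difference 0.32, 95% interval -0.37 to 1.02). It had 15 to 104 reads per library.

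ATP synthase has 18 nuclear members, of which 17 were tested and 0 passed, with 9 positive and 8 negative differences and a median of 0.03. The catalytic head is made by Atp5a1 and Atp5b. Atp5a1 had 282, 317 and 368 FPKM in controls and 260.3, 310 and 319 in Rspo2-AAV libraries (log2 difference -0.10, adjusted p = 0.635). Atp5b had 249.7, 268 and 348 FPKM in controls and 224, 271 and 279 in Rspo2-AAV libraries (log2 difference -0.07, 95% interval -0.32 to 0.17). Both were highest in control 1, and Atp5b was lowest in Rspo2-AAV 2. Atp5f1, a stalk subunit, had 53.5, 59.4 and 87.7 FPKM in controls and 50.03, 56.9 and 60.04 in Rspo2-AAV libraries, with a log2 difference of -0.16 (adjusted p = 0.485).

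3 genes, Atp5g1, Atp5g2 and Atp5g3, encode the same mature c-ring subunit behind different import signals. Their medians in controls were 18.8, 52.4 and 139 FPKM and in Rspo2-AAV libraries 20.5, 55.0 and 141, so Atp5g3 was the leading source of this transcript in both groups. The log2 differences were 0.20, 0.10 and 0.09, with adjusted p from 0.668 to 0.813.

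The difference of control 1 and Rspo2-AAV 2 from the rest of their group moved with coding length. Against the median of the other 5 libraries of its group, 88 of 89 nuclear members were higher in control 1 and 80 of 89 in Rspo2-AAV 2. The 21 members with under 300 coding bases had a median ratio of 1.93 in control 1 and 2.01 in Rspo2-AAV 2, while the 4 with at least 1500 had 1.13 and 0.78. Those 4 are Sdha, Ndufs1, Atp5a1 and Atp5b. Across the 89 genes, Pearson's r between the log2 difference and log2 coding length was -0.60 in control 1 and -0.65 in Rspo2-AAV 2.

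Other genes showed the trend too, at a smaller size. Over 11254 other tested protein-coding genes r was -0.47 and -0.23, and those under 300 bases had median ratios of 1.49 and 1.39. In each range of coding length in control 1 the members' median stood above that of other genes. In Rspo2-AAV 2 it did so in all but the longest, where it was 0.78 against 0.90. The members' median coding length was 438 bases against 1359 for the others. Genes share the library and are not independent, so these correlations are given without a p. The part of fragment size or RNA quality was not tested.

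**Figure D3:**
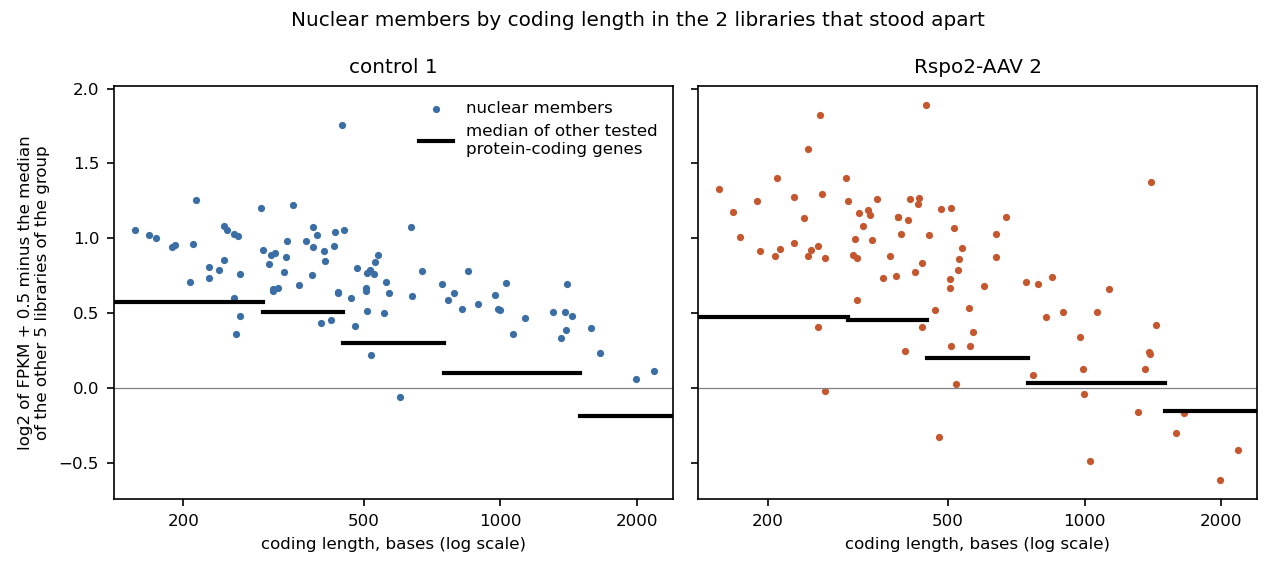
Each point is 1 of 89 nuclear members in control 1 (left) or Rspo2-AAV 2 (right), with coding length in bases (log scale) against the log2 of FPKM + 0.5 minus the median of the other 5 libraries of its group; black bars are medians of other tested protein-coding genes in the same length range. Short members stand highest, and the 4 longest reach median ratios of 1.13 and 0.78.

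Promoters of the nuclear members were searched for known motifs as a description, and the part of these motifs in the levels above was not tested. RefSeq sequences (GRCm38.p6, 250 bases before to 50 after the start) were found for 78 of 96 members, as 82 promoters. NRF1, a transcription factor known for its sites in respiratory chain promoters, binds a palindrome of 10 letters, given in capitals in the stretches below. Searched on both strands, it stood in 7 of 82 members' promoters (8.54%), in 2.04% of the promoters of all tested genes and in 0.971% of all 32851 promoters. The shorter core GCGCATG, which is part of the palindrome, stood in 19.5%, 6.63% and 3.91%. The ETS core CCGGAAG, read by the factor that Gabpa encodes, stood in 22.0%, 17.1% and 8.86%, and the YY1 core AAGATGGC in 13.4%, 4.40% and 2.75%. The median CpG count was 20 in members' promoters, 20 in those of tested genes and 7 in all promoters.

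3 promoter stretches with the palindrome in capitals show its place in genes of different classes. They are Ndufaf4 at chr4:24897935-24898014 (plus strand), Atp5k at chr5:108434405-108434484 (minus strand) and Cox6a1 at chr5:115349076-115349155 (minus strand), where the palindrome begins 113, 50 and 162 bases before the annotated start.
Ndufaf4: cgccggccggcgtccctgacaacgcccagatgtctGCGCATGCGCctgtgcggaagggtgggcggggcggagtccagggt
Atp5k: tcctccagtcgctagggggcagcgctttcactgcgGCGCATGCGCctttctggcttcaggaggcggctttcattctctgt
Cox6a1: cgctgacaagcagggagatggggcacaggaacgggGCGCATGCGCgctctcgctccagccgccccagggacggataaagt
The log2 differences of these genes were -0.13 for Ndufaf4, -0.13 for Atp5k and 0.14 for Cox6a1. A match is a description of letters and not a bound site.

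Of the genes that control the chain, Ppargc1a and Ppargc1b, related coactivators that drive mitochondrial gene programmes, had log2 differences of opposite sign. Ppargc1a had 0.584, 0.926 and 6.16 FPKM in controls and 1.67, 2.19 and 2.89 in Rspo2-AAV libraries. Control 3 alone was above the Rspo2-AAV range, and the other 5 controls lay below it, at up to 1.11 FPKM. The log2 difference was 0.62 ± 0.37 (SE, adjusted p = 0.365, limma). It was 1.00 without control 3 (adjusted p = 0.0034), where 6.79% of all genes passed. Control 3 is the library that opposed the difference, so this smaller p follows from the choice of library. Ppargc1a passed in 4 of 26 alternatives, with adjusted p up to 0.966. Ppargc1b had 0.851, 1.49 and 2.30 FPKM in controls and 0.441, 0.796 and 0.947 in Rspo2-AAV libraries. The groups overlapped only through control 1. The log2 difference was -0.65 ± 0.18 (SE, adjusted p = 0.0535, limma). It was -0.75 without control 1 (adjusted p = 0.0253), again the library that opposed the difference, where 5.88% of all genes passed. By limma-voom it was -1.03 (adjusted p = 0.0409), where 4.97% of all genes passed. Ppargc1b passed in 4 of 26 alternatives, with adjusted p up to 0.700.

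The other regulators differed less. Tfam, which packages and transcribes mitochondrial DNA, had 8.81, 9.46 and 10.1 FPKM in controls and 6.61, 8.29 and 8.86 in Rspo2-AAV libraries (log2 difference -0.22, adjusted p = 0.168). The log2 difference was 0.27 for Esrra (adjusted p = 0.247), a nuclear receptor that works with both coactivators. It was 0.02 for Nrf1, -0.07 for Gabpa and -0.007 for Polrmt, the mitochondrial RNA polymerase, with adjusted p from 0.805 to 0.974. Tfb2m, a cofactor of that polymerase named after its values were seen, was at 7.81 to 8.80 FPKM in controls and 5.87 to 7.64 in Rspo2-AAV libraries. Its groups did not overlap (log2 difference -0.28, adjusted p = 0.0715), as was the case for 3.24% of all genes tested.

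Lists of functionally related genes gave the same count, and at an unadjusted p under 0.05 the share over all genes tested was 21.5%. Of 37 tested genes for mitochondrial genome expression and regulation 0 passed, and 5 (13.5%) had an unadjusted p under 0.05, with lower values in Rspo2-AAV (median log2 difference -0.02). Of 41 further assembly factors 0 passed and 3 had an unadjusted p under 0.05 (median 0.07). The smallest adjusted p among them was 0.0535, for Coa5, a complex IV assembly factor at 16.4 to 22.6 FPKM in controls and 14.5 to 16.7 in Rspo2-AAV libraries. Of 77 mitochondrial ribosomal proteins 0 passed and 1 had an unadjusted p under 0.05 (median 0.04). Of 30 mitochondrial carrier, membrane contact, coenzyme Q and antioxidant genes 0 passed and 3 had an unadjusted p under 0.05 (median 0.06). In this last list Prdx3, a mitochondrial peroxidase, had the smallest adjusted p, 0.0946, at 86.1 ± 13.8 FPKM (SD, n = 6) in controls and 123 ± 25.9 in Rspo2-AAV libraries. The same call rule took 5.20% of all genes tested.

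Libraries numbered 1 to 3 and 4 to 7 were also taken apart, a boundary drawn from values and not from a label. Scd1, a lipid desaturase gene outside the chain, stood at 331 to 541 FPKM across the low-numbered libraries of both groups and at 2457 to 3662 FPKM across the high-numbered ones. Between the number sets, in a limma fit with the vector as a term, 0 of 102 members passed (smallest adjusted p 0.129), against 0.357% of all genes. At an unadjusted p under 0.05 there were 14 members, and the share of all genes at that threshold is not given here. Within numbers 4 to 7 (3 controls and 4 Rspo2-AAV libraries), 2 of 102 genes were called higher and 0 lower, where 13.3% of all genes passed, 6.34% in the higher and 6.92% in the lower direction. They were Ndufaf6 (log2 difference 0.64, adjusted p = 0.0281) and Ndufb5, an accessory complex I subunit (0.25, adjusted p = 0.0472). In numbers 4 to 7 the acinar markers summed to 35.2 FPKM or more in each Rspo2-AAV library and to at most 0.885 in controls. Vector and acinar RNA therefore cannot be told apart in these calls. Control 1, Rspo2-AAV 2 and the libraries with Xist all lie in numbers 1 to 3 and are absent here. In this set 91 of 102 intervals stayed within 1.5-fold, and the count over all genes is not given here. Of the 13 mitochondrially encoded genes, 8 had a positive difference. A limma test of whether the vector's difference itself varied between the number sets called 0 of 102 members (smallest adjusted p 0.329) and 0.245% of all genes. In it 3 members had an unadjusted p under 0.05, again without a share of all genes at that threshold. Within numbers 1 to 3 the interval stayed within 2-fold for 24 of 102, so these libraries alone bound little.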

How the data were processed

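The authors deposited FPKM values for 54532 genes in 12 liver libraries, with 1 column per sample. The build was GRCm38 (mm10) and the tools, in no stated role or order, were DESeq2 1.20.0, HISAT2 2.0.5 and featureCounts 1.5.0-p3, per the submitters' processing notes. The sources used here do not give strand use. Of the members, 50 overlap another annotated gene (35 a tested one), taken from gene start to gene end with introns included. Many of these overlaps are on the opposite strand, and some are a few bases long, such as 4 for Ndufa3. Whether reads in the shared bases were told apart is not known.

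The product of each deposited FPKM and its gene length, over the library's step, was a whole read count for 100.0% of positive values (tolerance 0.01). These reads were used for depth, read shares and limma-voom. The library size behind the FPKM differed from the read total. It was 25238045 against 22195576 reads in Rspo2-AAV 1, 15361657 against 17796257 in Rspo2-AAV 2 and 13256598 against 14295644 in control 1. The fit by limma-voom used these same sizes, so it did not test the scaling. Groups were tested with limma 3.58.1 (trend; R 4.3.3) on log2(FPKM + 0.5), which understates changes of low genes, over the 13447 genes that averaged 0.5 FPKM or more. Benjamini-Hochberg adjustment ran over all of them.

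Members and lists were chosen with earlier results of these data known. Named genes were all mitochondrially encoded members, the 2 highest, the largest positive and the largest negative difference of each class, isoform sets and 7 regulators. Alternatives covered the pseudocount, filter, TPM scaling, limma-voom, replicate block, number sets and leaving out libraries. Transcript windows came from GENCODE M21 and promoters from RefSeq. Proteins were not used here.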

Additional observations from a re-analysis of the deposited data

Results flagged for a closer look

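In 60 measures over 2 groups each (120 groups of 6 values), 60 values lay far from the rest of their group, by the gap to the nearest library over the group's range. Chance gives about 1 in 20 groups. Of the 60, 33 were Rspo2-AAV 2, 25 control 1, 1 Rspo2-AAV 1 and 1 control 3. Most measures share these libraries and are not independent.

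In Rspo2-AAV 2 the mitochondrially encoded members took 10.3% of reads (others 3.43% to 5.64%) and the nuclear members 1.46%. In control 1 the nuclear members took 1.53%. Relative to each gene's 12-library median, the median log2 level in control 1 was 0.73 for complex I, 0.49 for complex II, 0.70 for complex III, 0.74 for complex IV, 0.62 for ATP synthase and 0.68 for all nuclear members. In Rspo2-AAV 2 it was 0.92 for complex I, 0.79 for complex III, 1.05 for complex IV, 0.81 for ATP synthase and 0.81 for all nuclear members. Complex II stood at -0.22 in Rspo2-AAV 1.

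Of the mitochondrially encoded genes, the FPKM in Rspo2-AAV 2 was 27688 for mt-Co1, 19135 for mt-Cytb, 13369 for mt-Nd1, 12605 for mt-Nd2, 7548 for mt-Nd5, 8140 for mt-Nd6 and 6674 for mt-Nd4. It was 460.3 for mt-Co2, 809 for mt-Atp6 and 620 for mt-Co3.

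Of the nuclear genes, both libraries stood apart for 14. The FPKM in control 1 and then Rspo2-AAV 2 was 228 and 297 for Ndufa2, 219 and 237 for Ndufb11, 103 and 134 for Ndufa6, 139 and 135 for Sdhb, and 297 and 459.7 for Uqcrq. It was 244 and 220.4 for Uqcrfs1, 786 and 966 for Cox6a1, 560.0 and 597 for Cox8a, and 340.3 and 491 for Cox4i1. It was 193 and 205 for Cox7a2, 236 and 248 for Ndufa4, 348 and 224 for Atp5b, 35.1 and 43.2 for Atp5g1, and 81.7 and 96.1 for Atp5g2. Of these 14, Atp5b was the gene that was low rather than high in Rspo2-AAV 2. In control 1 alone the FPKM was 32.4 for Ndufaf8, 92.9 for Uqcrc2, 87.7 for Atp5f1 and 113 for Cox7a2l. In Rspo2-AAV 2 alone it was 403 for Cox6b1 and 240.5 for Atp5g3. Ppargc1a was at 6.16 FPKM in control 3 and at 0.584 to 1.11 in the other controls.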

How the results depend on the processing

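The counts of members called, 0 higher and 0 lower, were recomputed under 26 alternatives, of which 1 (without control 1 and Rspo2-AAV 2) was added after seeing the data. Members called higher were 2 within numbers 4 to 7, and 0 to 1 when each library was left out in turn (1 without control 6). Members called lower were 0 in each. Over 49 named genes and 1273 values, 0 reversed a call and 10 came to pass the threshold. The other 1263 stayed uncalled, 113 of them with the opposite sign. The 10 were mt-Atp8 without control 6 (1.204), Ndufaf6 within numbers 4 to 7 (0.64), Ppargc1a in 4 settings (0.90 to 1.07) and Ppargc1b in 4 (-1.03 to -0.68). Over all genes, calls of 343 higher and 356 lower became 197 and 183 with TPM over all genes, 226 and 175 with TPM over nuclear genes, and 195 and 216 with no filter. TPM over nuclear genes moved the median of all genes to 0.03.

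The replicate block gave 0 members called and 145 higher and 153 lower genes in all. The numbers do not pair the samples: the correlation of same-numbered deviations ran from -0.25 (number 1) to 0.16 (number 6), while the largest correlations were between differing numbers, control 3 with Rspo2-AAV 1 (0.44) and control 1 with Rspo2-AAV 2 (0.27). The block moved Ppargc1a to 0.96 (adjusted p = 0.0243). Depth limited mt-Atp8 (4 to 37 reads), Cox7a1 (3 to 14), Ndufa4l2 (15 to 104) and Atp5s (99 to 195), whose counting error of 10.1% exceeded its control spread of 6.70%.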

Other observations

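Pseudogene rows named after respiratory chain genes, which the protein-coding rule leaves out, had their own values. Ndufb1-ps, annotated as a lncRNA at a bidirectional promoter, had 27.3 FPKM in control 1 and 30.1 in Rspo2-AAV 2, against 11.4 to 16.2 in the other 10 libraries. Ndufab1-ps, a processed pseudogene, had 27.2 FPKM in control 1 and 22.1 in Rspo2-AAV 2, against 11.9 to 17.9 in the others. In both rows the 2 highest libraries were those in which the nuclear subunits stood high. Ndufb4c was at 5.42 and 5.34 FPKM in these 2 libraries and at 2.18 to 4.70 in the others. Atp5l2-ps was at 1.93 FPKM in control 1 and 2.92 in Rspo2-AAV 2, also its 2 highest. Not every tested row followed. Ndufs6b was at 2.82 and 2.99 FPKM in these 2 libraries but highest in Rspo2-AAV 5, at 3.02. Cox6c2 was at 2.61 FPKM in control 1 and at 0 in Rspo2-AAV 2. Uqcrh-ps2, Atp5l-ps2 and Atp5c1-ps were listed at 0 in all 12 libraries.

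All 7 chromosome 1 copies of mitochondrial genes were highest in Rspo2-AAV 2. Gm28661, the copy of mt-Co2, was at 470.0 FPKM there and at 120 to 207 in the other 11 libraries, close to the level listed for mt-Co2 itself. Gm28437, the copy of mt-Co3, was at 139 FPKM there and at 27.6 to 55.1 elsewhere. Gm28661 was identical to mt-Co2 at 681 of 681 bases, and Gm28437 to mt-Co3 at 783 of 783. Reads within such bases cannot be told apart by sequence, so these values do not show that the copies themselves were transcribed. Gm28438, the copy of mt-Nd3, was at 15.3 FPKM in Rspo2-AAV 2 and at 3.95 to 12.5 elsewhere.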
